A study of Mus musculus with 8 samples.

Results

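RGS (regulator of G protein signalling) genes were followed in the ductus arteriosus, the fetal shunt between pulmonary artery and aorta, and in the aorta itself. The members were every probe set annotated to exactly 1 of 9 genes (Rgs1, Rgs2, Rgs3, Rgs4, Rgs5, Rgs7bp, Rgs10, Rgs16 and Rgs17): 25 of the 45037 probe sets tested, and 9 of 18193 genes. Vessel segments of fetal mice, strain CD88 and described as wild type, were taken without treatment on day 19 of gestation. Each array carried total RNA of 1 pool, made from up to 10 pups of a single pregnant female, with 4 pools of ductus (labelled Ducuts arteriosis) and 4 of aortic tissue. The pools are labelled as biological replicates, so p-values measure the spread between these pools. Values are log2 levels per probe set.

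RGS proteins switch off signals from G protein-coupled receptors: they bind the active, GTP-loaded alpha subunit and speed its GTP hydrolysis. In arterial smooth muscle their main targets are the Gq and Gi alpha subunits, which lie downstream of receptors for angiotensin, endothelin and other vasoconstrictors. Rgs1 to Rgs5 and Rgs16 belong to 1 subfamily of mostly small proteins, Rgs10 and Rgs17 to others, and Rgs7bp is not itself an RGS protein but a membrane anchor for the Rgs7 group. Rgs4, Rgs5 and Rgs16 are also known as proteins whose N-terminal cysteine marks them for oxygen-dependent breakdown, so that their transcript and protein levels need not run in parallel.

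Within the family the vessels differed in opposite directions. Rgs5 and Rgs4 were higher in the ductus, Rgs3 was higher in the aorta, and the other 6 genes did not pass limma's test at an adjusted p under 0.05 (Benjamini-Hochberg over all 18193 genes, 1 probe set per gene). In numbers, 2 of 9 genes were called higher in the ductus, beside 1.80% of all genes, and 1 of 9 higher in the aorta, beside 2.06%. The 9 were chosen with earlier results of these data known, so these shares cannot show an excess of calls in the family. In all, 21 genes of the family and its anchors were measured, and 0 of the 12 outside the members were called. Of the 25 probe sets, tested among all 45037, 6 were called higher in the ductus (background 1.26%) and 1 higher in the aorta (background 1.20%). All 6 belonged to Rgs5 or Rgs4. In bulk tissue, fewer cells of a type and less RNA per cell cannot be told apart. The values of the tissues did not overlap on 13 of the 25 probe sets, against 9.25% of all probe sets. These 13 belonged to 5 genes, and probe sets of 1 gene are not independent. The median difference of the 9 genes was log2 0.02, beside -0.03 over all genes.

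**Figure D1:**
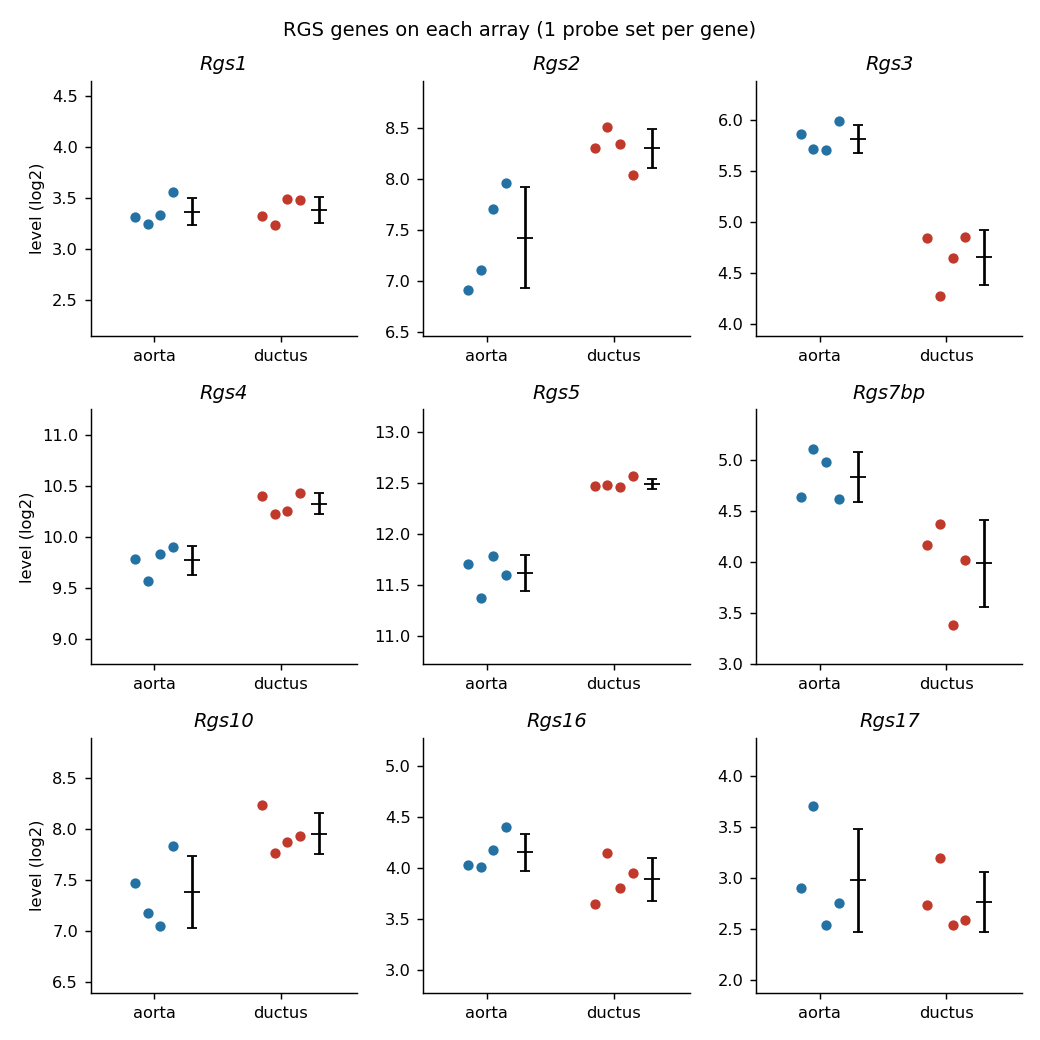
Level (log2) of each of the 9 genes on the 4 aorta (blue) and 4 ductus (red) arrays, for the probe set with the highest mean, with mean and SD beside the points; every panel spans the same log2 range. The points of the tissues are apart for Rgs5, Rgs4 and Rgs2, with the ductus higher, and for Rgs3 and Rgs7bp, with the aorta higher.

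Promoter sequences of the called genes are shown because Rgs5 and Rgs4, which were higher in the same vessel, are next to each other on chromosome 1, with 0 protein-coding genes between them in the reference gene table (GRCm38.p6). Each is the 250 bases before the gene's start in RefSeq on that build, 5′ to 3′ on the gene's strand: Rgs5 at chr1:169655251-169655500 (plus strand), Rgs4 at chr1:169747643-169747892 (minus strand), and Rgs3, which has 2 listed starts, at chr4:62559597-62559846 and chr4:62619422-62619671 (plus strand). Capitals mark the TATA box letters TATAAA and the cyclic AMP response half-site TGACG, searched on both strands.
Rgs5: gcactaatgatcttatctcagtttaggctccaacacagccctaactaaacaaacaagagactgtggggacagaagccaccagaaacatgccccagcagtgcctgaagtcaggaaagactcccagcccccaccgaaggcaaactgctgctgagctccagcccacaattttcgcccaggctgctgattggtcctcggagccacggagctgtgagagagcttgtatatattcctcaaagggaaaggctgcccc
Rgs4: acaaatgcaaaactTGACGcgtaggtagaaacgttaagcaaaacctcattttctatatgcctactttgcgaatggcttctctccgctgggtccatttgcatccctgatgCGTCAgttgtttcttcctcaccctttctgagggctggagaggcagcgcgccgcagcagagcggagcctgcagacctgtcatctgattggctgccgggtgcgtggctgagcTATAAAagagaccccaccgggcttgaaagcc
Rgs3, upstream start: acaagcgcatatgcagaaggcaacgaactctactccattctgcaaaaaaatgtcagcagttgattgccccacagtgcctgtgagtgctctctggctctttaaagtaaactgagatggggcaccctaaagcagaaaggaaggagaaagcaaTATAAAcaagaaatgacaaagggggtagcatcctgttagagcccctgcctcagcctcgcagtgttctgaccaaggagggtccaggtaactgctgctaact
Rgs3, downstream start: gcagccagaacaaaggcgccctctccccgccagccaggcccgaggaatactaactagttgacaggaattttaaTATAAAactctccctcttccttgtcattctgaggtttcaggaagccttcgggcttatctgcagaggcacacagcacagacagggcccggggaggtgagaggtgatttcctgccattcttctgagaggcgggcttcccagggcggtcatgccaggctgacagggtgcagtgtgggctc
Rgs4 held 1 TATAAA, starting 31 bases before its start, and 2 half-sites, whereas the Rgs5 stretch held neither. Each Rgs3 stretch held 1 TATAAA, 100 and 177 bases before the start, and no half-site. Of the 32851 promoters of this length in the table, 12.4% hold TATAAA and 17.8% the half-site. The CArG box, the serum response element of smooth muscle genes, occurred in none of the 9 stretches found for the members (1.47% of all promoters). The AP-2 letters GCCNNNGGC occurred in Rgs2 and Rgs16 (13.7% of all), whose stretches are not printed. A match is a description of letters, and the arrays do not measure binding. Promoter entries were found for 8 of the 9 genes, with Rgs1 the exception.

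Rgs5, a marker of pericytes and arterial smooth muscle that limits Gq and Gi signals, was higher in the ductus on every probe set. On the probe set with the highest mean, 1420941_at, the 4 ductus arrays read 12.47, 12.48, 12.46 and 12.57 and the aorta arrays 11.70, 11.38, 11.78 and 11.60. All ductus values lay above all aorta values, and their spread in the ductus was small (12.50 ± 0.049 against 11.61 ± 0.177, log2 mean ± SD, n = 4 each). The difference was log2 0.88 ± 0.113 (model SE; 1.84-fold; limma adjusted p = 0.00226).

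The size of the Rgs5 difference depended on the probe set. Probe set 1417466_at read 12.05, 11.82, 11.93 and 11.98 in the ductus and 10.52, 10.79, 10.94 and 10.95 in the aorta, a 2.22-fold difference (limma adjusted p = 0.00132 over all probe sets). On 1420942_s_at the ductus read 11.03, 10.82, 11.09 and 11.13 and the aorta 8.54, 9.05, 9.23 and 9.06, which is 4.13-fold (adjusted p = 0.000169). The dim 1420940_x_at read 5.0, 4.54, 4.79 and 5.42 against 2.35, 2.76, 3.05 and 3.05, which is 4.4-fold (adjusted p = 0.000829). The aorta mean there, 2.80, falls among the arrays' first quartiles (2.74 to 2.86), where signal and background cannot be separated, so that fold is not exact. By Affymetrix convention the suffixes _s_at and _x_at mark probes that can also match other transcripts. The 2 probe sets without such a suffix gave 1.84-fold and 2.22-fold, the 2 with one 4.13-fold and 4.4-fold; what sets the sizes apart was not tested. As the mean over its 4 probe sets the gene differed by log2 1.55 (adjusted p = 0.000152).

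Rgs4, which limits Gq and Gi signals and is best known from neurons and heart, was also higher in the ductus, by less. Probe set 1416286_at read 10.40, 10.23, 10.25 and 10.43 in the ductus and 9.78, 9.57, 9.83 and 9.90 in the aorta, with no overlap. The difference was log2 0.56 ± 0.110 (1.47-fold; limma adjusted p = 0.0230). This call was lost when aorta replicate 1 or 2 or ductus replicate 1 or 4 was left out (adjusted p of 0.0527, 0.0654, 0.0706 and 0.0751), and with the replicate number as a block (0.0795). The second probe set, 1416287_at, read 8.80, 8.80, 8.65 and 8.91 against 8.11, 7.78, 8.16 and 7.99, a 1.71-fold difference (adjusted p = 0.00922 over all probe sets), and kept its call without any 1 array. In the fit over all probe sets, the replicate block ended the calls of both and left 5 RGS probe sets called. Under the 22 alternatives of that fit, 1416286_at lost its call in 15 and 1416287_at in 4. The third, 1448285_at, had means of 2.56 and 2.42, below the first quartile of every array, in the range of background (log2 0.15 ± 0.168, adjusted p = 0.777).

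Rgs3, a long multi-isoform member of the same subfamily that acts on Gq and Gi, went the other way. On 1449516_a_at the ductus read 4.84, 4.28, 4.65 and 4.85 and the aorta 5.86, 5.71, 5.70 and 5.99. Every aorta value lay above every ductus value, and the difference was log2 -1.16 ± 0.147, or 2.24-fold higher in the aorta (limma adjusted p = 0.00219). The other 3 probe sets had the same sign and did not pass: 1425701_a_at at log2 -0.41 ± 0.118 and 1454026_a_at at -0.48 ± 0.137 (adjusted p = 0.127 for both), and 1425296_a_at at -0.43 ± 0.153 (adjusted p = 0.234). The first and second of these did not overlap between the tissues, while the third did: its lowest aorta value, 5.01, was below the highest ductus value, 5.06. As the mean over its 4 probe sets the gene differed by log2 -0.62 (adjusted p = 0.00841).

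**Figure D2:**
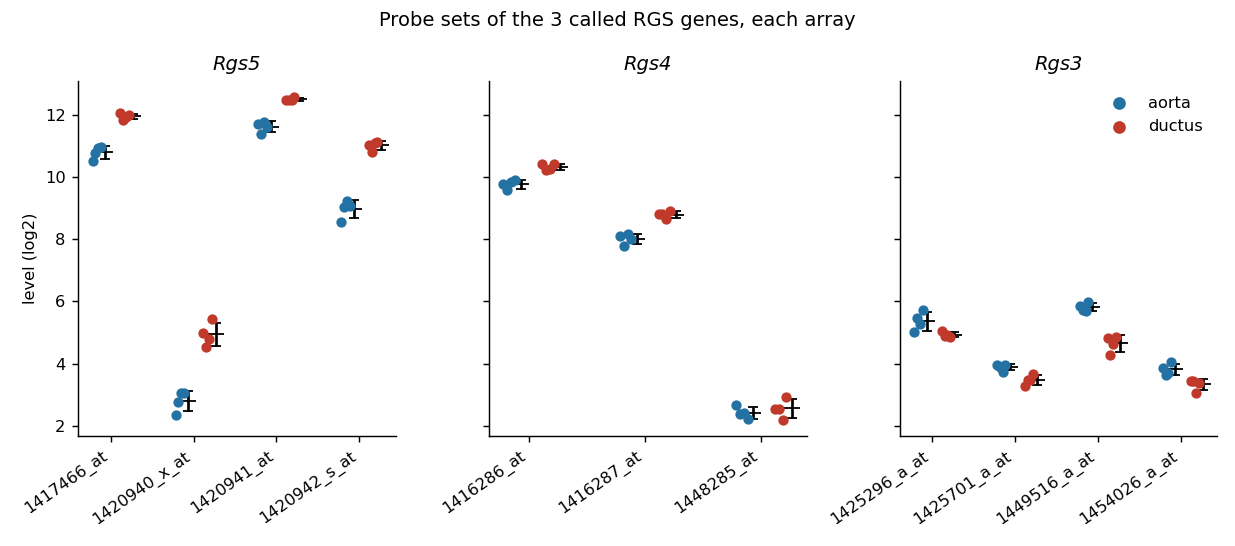
Level (log2) on each array for all probe sets of Rgs5, Rgs4 and Rgs3, aorta in blue and ductus in red, with mean and SD (n = 4 each) beside the points. All 4 Rgs5 probe sets and 2 of 3 Rgs4 probe sets lie higher in the ductus without overlap, and 3 of 4 Rgs3 probe sets lie higher in the aorta without overlap.

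Within each array, the distance between the levels of Rgs5 and Rgs3 (Rgs5 minus Rgs3) was 7.84 ± 0.253 log2 units in the ductus and 5.80 ± 0.213 in the aorta (n = 4 each). The pair was picked knowing that each gene separates the tissues, in opposite directions, so this is a description with no test.

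Rgs2, a Gq-selective member that is activated by cyclic GMP-dependent kinase in vascular smooth muscle, had higher values in the ductus on 3 of 4 probe sets and was not called. On 1447830_s_at the ductus read 8.30, 8.51, 8.34 and 8.04 and the aorta 6.91, 7.11, 7.71 and 7.96. The tissues did not overlap, but aorta replicate 4, at 7.96, came close to the lowest ductus value. The difference was log2 0.88 ± 0.228, with a 95% interval of 0.36 to 1.39 and a limma adjusted p of 0.0728. It passed without aorta replicate 4 (log2 1.06, adjusted p = 0.0310), with the adipocyte marker mean as a covariate (log2 0.93, adjusted p = 0.0125) and with a trended, robust prior (adjusted p = 0.0399), and its mean over the 4 probe sets was log2 0.54 (adjusted p = 0.0767). The probe sets 1419248_at (7.33, 7.31, 7.35 and 6.90 against 6.43, 6.18, 6.6 and 6.88; log2 0.69 ± 0.171, adjusted p = 0.0759) and 1419247_at (0.63 ± 0.199, adjusted p = 0.173) also had no overlap, and 1443250_at, with means of 2.54 and 2.57, was below every first quartile.

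Rgs16, an inducible member of the same subfamily, and Rgs1, best known from lymphocytes, gave no called probe set. Rgs16 read 3.65, 4.15, 3.81 and 3.95 in the ductus and 4.03, 4.01, 4.18 and 4.4 in the aorta on 1451452_a_at, with overlap (log2 -0.26 ± 0.141, limma adjusted p = 0.405; 95% interval -0.58 to 0.05). Its other 2 probe sets differed by log2 -0.03 and 0.25. Rgs1 had 1 probe set, at 3.32, 3.23, 3.49 and 3.48 in the ductus and 3.32, 3.25, 3.34 and 3.56 in the aorta (log2 0.02 ± 0.112, adjusted p = 0.965; 95% interval -0.24 to 0.27).

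Among the members of other subfamilies, Rgs10, a small Gi-directed protein of macrophages, platelets and other cells, had higher values in the ductus and was not called. Its 1 probe set read 8.24, 7.77, 7.88 and 7.94 in the ductus and 7.47, 7.18, 7.05 and 7.84 in the aorta. Aorta replicate 4 overlapped the ductus, and the other aorta arrays were below it (log2 0.57 ± 0.182, limma adjusted p = 0.141, and log2 0.72 with adjusted p = 0.0456 without that array). The same array had the highest thymocyte marker mean among the aorta arrays, 6.32 against 3.42 to 4.51. With the thymocyte mean as a covariate the Rgs10 difference was log2 0.41 (adjusted p = 0.166). Over all 25 alternatives run for this gene, its difference ranged from log2 0.41 to 1.26. The platelet marker mean was 6.65, 5.72, 6.84 and 6.16 in the ductus and 5.76, 6.10, 6.08 and 6.34 in the aorta, where replicate 4 was again the highest, and 5 of its 6 genes had higher values in the ductus. The macrophage marker mean was 7.17, 6.27, 7.09 and 6.79 in the ductus and 6.94, 7.17, 6.87 and 7.0 in the aorta. In the ductus, all 3 means were lower on replicate 2, which had the lowest Rgs10 value, than on replicate 1, which had the highest. Other arrays did not follow this order. Ductus replicate 4 had the lowest thymocyte mean of the ductus arrays, 3.79, with Rgs10 at 7.94. Aorta replicate 2 had the highest macrophage mean of the aorta arrays, 7.17, with Rgs10 at 7.18. The part of these cells in the Rgs10 difference was not tested beyond the thymocyte covariate.

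Rgs17, which acts on Gi-type subunits and is mostly neuronal, had means of 2.76 ± 0.298 in the ductus and 2.98 ± 0.508 in the aorta on its brighter probe set. These lie close to the first quartiles, the tissues overlapped, and the difference was log2 -0.21 ± 0.25 (limma adjusted p = 0.750; 95% interval -0.77 to 0.35). The arrays read 2.74, 3.19, 2.54 and 2.59 in the ductus and 2.90, 3.71, 2.54 and 2.76 in the aorta, where replicate 2 was the highest. The other probe set had log2 -0.36 ± 0.221 (adjusted p = 0.533 over all probe sets).

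Rgs7bp, the membrane anchor, had higher values in the aorta on all 3 probe sets and was not called. On 1458534_at the ductus read 4.17, 4.37, 3.38 and 4.02 and the aorta 4.64, 5.10, 4.98 and 4.61. The tissues did not overlap (log2 -0.85 ± 0.215, limma adjusted p = 0.0653; 95% interval -1.33 to -0.37). On 1436876_at the aorta arrays split, with 5.24 and 5.16 on replicates 2 and 3 and 3.96 and 3.63 on replicates 1 and 4, against 3.54 to 4.24 in the ductus (log2 -0.64 ± 0.361, adjusted p = 0.50). The third, 1437559_at, had means of 2.18 and 2.56, below every first quartile. Transcripts of the Rgs7 group, whose proteins Rgs7bp anchors, and of other partners of that group were not called either. Of these 8 genes, limma called 0 (1 at an unadjusted p under 0.05). Their mean was 3.20 in the ductus and 3.34 in the aorta, so dim signal limits this count. Rgs7 itself had means of 2.96 and 3.37.

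**Figure D3:**
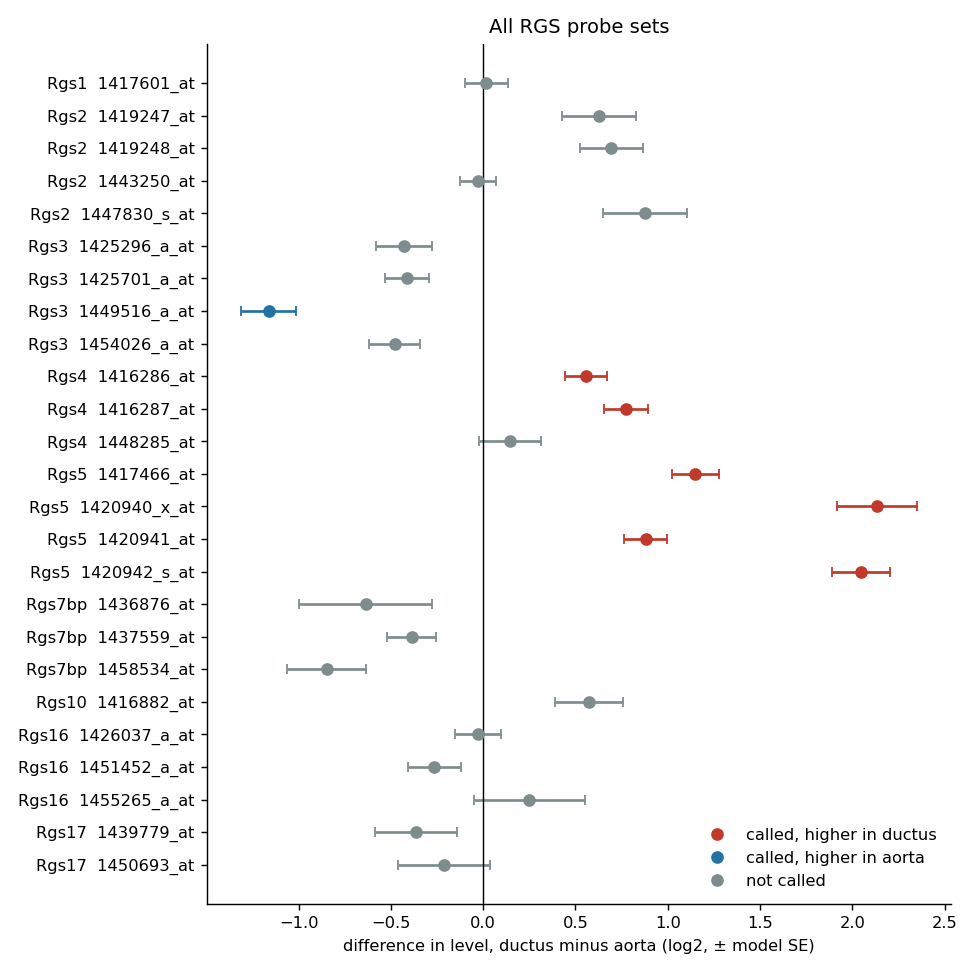
Difference in level (log2, ductus minus aorta, ± model SE) for all 25 probe sets of the 9 genes; red is called higher in the ductus, blue called higher in the aorta, grey not called. The 6 red points are Rgs5 and Rgs4 probe sets, between 0.56 and 2.14, and the 1 blue point is an Rgs3 probe set at -1.16.

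Of the other RGS genes and their anchor Rgs9bp, 12 of 14 listed were measured and limma called 0 of them (2 at an unadjusted p under 0.05), with a median difference of log2 -0.09. Rgs14, a scaffold of the Rgs10 subfamily, had the largest difference, log2 -0.47 ± 0.198 (limma adjusted p = 0.273), at means of 2.54 and 3.01.

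Genes around the RGS proteins were described through lists of 118 genes, of which 102 were measured. They held other RGS genes, Rgs7 group partners, G protein subunits, effectors, modulators, receptors, and genes for the breakdown of Rgs4, Rgs5 and Rgs16. Of the 102, 4 passed with the ductus higher, beside 1.80% of all genes, and 4 with the aorta higher, beside 2.06%. The median of the 102 was log2 -0.02. The lists were chosen with earlier results of these data known, so these shares cannot show an excess of calls. Among 13 alpha subunits, Gna14, a Gq-class subunit, was the 1 called gene. It read 10.60, 10.66, 10.80 and 10.55 in the ductus and 8.14, 8.23, 7.49 and 8.83 in the aorta, far apart, which is 5.57-fold (limma adjusted p = 0.000489). All 3 Gna14 probe sets were called, at 5.57-fold, 7.30-fold and 6.34-fold. The Gq subunits Gnaq and Gna11 were looked up after the values were seen: Gnaq differed by log2 0.34 ± 0.119 (adjusted p = 0.188) and Gna11 by log2 0.14 ± 0.130 (adjusted p = 0.681).

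Downstream of Gq and G12, 1 of 13 effector genes was called: Plcb1, a phospholipase C that Gq activates, was higher in the aorta. It read 5.66, 5.77, 5.87 and 6.11 in the ductus and 6.70, 7.01, 6.90 and 6.71 in the aorta, without overlap (1.97-fold, limma adjusted p = 0.00274). All 5 Plcb1 probe sets had this sign and 1 was called. Among 15 beta and gamma subunits, Gng2 passed with the aorta higher (1.46-fold, adjusted p = 0.0261). That call was lost without aorta replicate 2 or 3 or without ductus replicate 1, 2 or 3 (adjusted p of 0.0604 to 0.0782), and as the mean over its 4 probe sets (log2 -0.31, adjusted p = 0.314). Of 15 receptor kinases, arrestins and other modulators, limma called 0 (2 at an unadjusted p under 0.05), with Grk4, a receptor kinase, at log2 0.84 ± 0.230 (adjusted p = 0.0858). The second Grk4 probe set was called higher in the ductus (log2 0.82 ± 0.163, adjusted p = 0.0306 over all probe sets), and so was the gene as the mean over both (log2 0.83, adjusted p = 0.0140).

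Of 25 measured receptors that couple to Gq or Gi, 3 had a call towards the ductus and 2 a call towards the aorta, with a median of log2 -0.17. Of all genes, 1.80% and 2.06% had such calls. On the ductus side were the chemokine receptor Cxcr4, by 2.42-fold (limma adjusted p = 0.00262), and the lysophosphatidic acid receptor Lpar1, by 2.01-fold (adjusted p = 0.00178). The 2 angiotensin type 1 receptor genes of the mouse went opposite ways. Agtr1b was higher in the ductus by 2.01-fold (adjusted p = 0.00906), reading 3.70, 3.59, 3.52 and 3.93 against 2.73, 3.09, 2.40 and 2.49, but its aorta mean of 2.68 is below every first quartile and the fold is not exact. Agtr1a, chosen after its values were seen as the fifth called receptor where the rule named 4, was higher in the aorta by 1.78-fold (adjusted p = 0.0222). It did not pass without aorta replicate 2 or 4 or ductus replicate 1, 2 or 4 (adjusted p of 0.0563 to 0.0730). The neuropeptide Y receptor Npy1r was higher in the aorta by 3.81-fold (adjusted p = 0.0136) on 1 of its 2 probe sets.

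Genes of the cysteine N-degron pathway, which removes Rgs4, Rgs5 and Rgs16 proteins, were not called: limma called 0 of 7 measured (1 at an unadjusted p under 0.05). The ubiquitin ligase Ubr2 had the largest difference, log2 -0.32 ± 0.112 (limma adjusted p = 0.183).

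**Figure D4:**
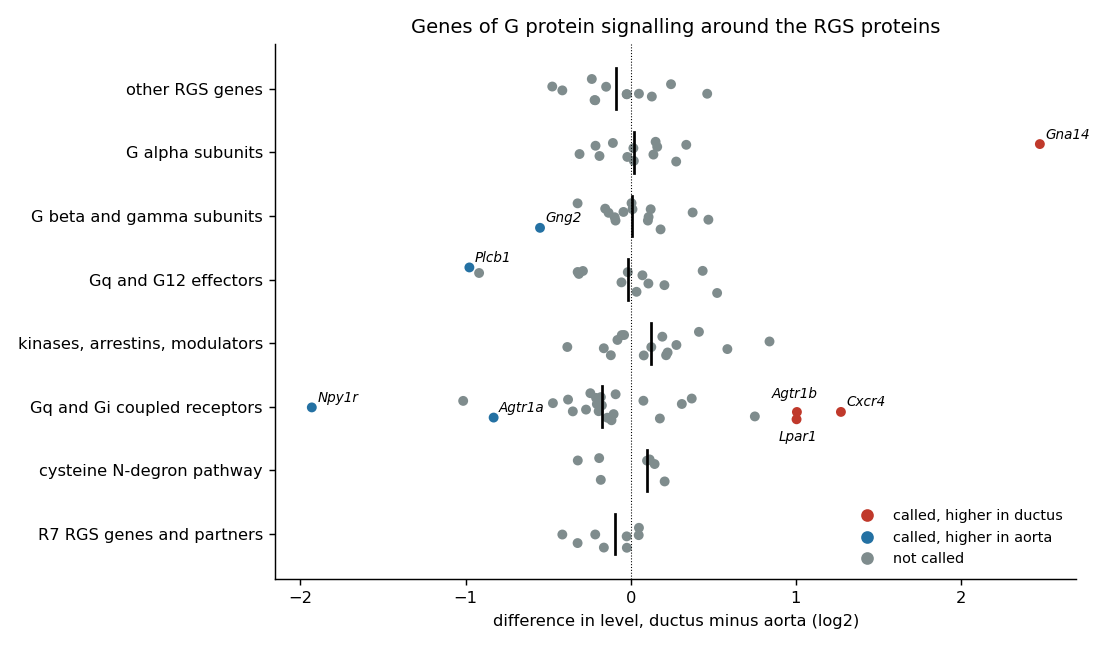
Difference in level (log2, ductus minus aorta) of each measured gene in 8 lists around the RGS proteins, 1 point per gene, with the list's median as a black line; red is called higher in the ductus, blue called higher in the aorta, grey not called. Gna14 stands at 2.48, Npy1r at -1.93, and the list medians lie between -0.17 and 0.12.

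The genes whose pattern over the 8 arrays was most like that of Rgs5 were Ttc39b, Slc12a2, Naalad2, Foxf1 and Thsd7b, with Pearson correlations of 0.984 to 0.992. Those most like Rgs3 were Oxr1, Tlr3, Grip2, Hapln1 and Palmd, with correlations of 0.972 to 0.983. The 8 points share the 2 tissues, so any gene that separates them scores high here, and 9 of these 10 genes were called themselves; the exception was Tlr3 (log2 -0.43, limma adjusted p = 0.0605).

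Several cell type markers differed between the vessels along with the RGS genes, and their part in the RGS differences was not tested beyond the covariate fits given here. Smooth muscle markers, as the mean of 10 genes, were at 10.31 to 10.73 in the ductus and 9.33 to 9.96 in the aorta, and 4 of 10 were called higher in the ductus. Their defining members had high levels in both vessels: Acta2 was at 12.35 and 12.14 (log2 0.21 ± 0.124, limma adjusted p = 0.464) and Myh11 at 11.30 and 10.30 (log2 1.00 ± 0.152, adjusted p = 0.00623). Of 12 pericyte markers, 3 were called higher in the ductus (Kcnj8, Abcc9 and Mcam), and Pdgfrb (log2 -0.30, limma adjusted p = 0.248) and Notch3 (log2 -0.33, adjusted p = 0.180) were not called. In this list, 5 of 12 genes had higher values in the ductus and the median was log2 -0.08. Its means per array overlapped between the vessels. Endothelial markers ran at 7.34 to 7.57 in the ductus and 7.76 to 8.15 in the aorta (3 of 13 called higher in the aorta), and mesothelial markers at 6.48 to 7.10 and 7.72 to 9.12 (7 of 10 called higher in the aorta). Schwann cell markers were at 4.15 to 4.35 in the ductus and 3.82 to 4.12 in the aorta, with Cdh19 and S100b of 6 called higher in the ductus. The other 4 were not called, and the Cdh19 aorta mean, 2.58, is below every first quartile. Of 11 autonomic neuron markers, Gap43 was called higher in the aorta (log2 -1.05). Elavl4 had higher values in the ductus without overlap and was not called (log2 1.47, limma adjusted p = 0.0562). Of these 11 markers, 4 had higher values in the ductus, the median was log2 -0.18, and the list means per array overlapped between the vessels. Thymocyte (median log2 1.03) and skeletal muscle markers (median log2 0.89) had higher values in the ductus in 12 of 12 genes each, and limma called 0 of them (0 and 2 at an unadjusted p under 0.05). Their list means per array overlapped between the vessels. Thymocyte means were at 3.79 to 7.05 in the ductus and 3.42 to 6.32 in the aorta, skeletal muscle means at 4.11 to 6.59 and 3.78 to 4.35.

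With the mean of the smooth muscle, endothelial or mesothelial markers as a covariate (settings added once the values were known), 0 of the 9 RGS genes passed in limma's fit, and 55, 44 and 48 of the 18193 genes did. The covariates separate the tissues themselves, so the standard errors grew. Rgs5 then stood at log2 1.09 ± 0.258, 0.64 ± 0.262 and 0.80 ± 0.263, and Rgs3 at -1.15 ± 0.355, -0.75 ± 0.329 and -0.87 ± 0.329. With the thymocyte, skeletal muscle or adipocyte mean in that place, Rgs5 (log2 0.89 to 0.90) and Rgs3 (log2 -1.22 to -1.17) kept their calls. Rgs4 kept its call with the thymocyte and adipocyte means and did not pass with the skeletal muscle mean (log2 0.57, adjusted p = 0.0804).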

How the data were processed

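Bulk RNA of 8 pools (4 ductus arteriosus, 4 aorta) was measured on Affymetrix arrays, 1 array per pool. The authors deposited log2 expression levels of 45101 probe sets, made with RMA (background correction, quantile normalization and summarization of probes) and Partek 6.6, per the submitters' processing notes. Which settings were used is not given in the sources used here. RMA shrinks differences between dim probe sets, and the number of arrays limits the precision. After 64 control probe sets were left out, 45037 were tested. GEO's platform annotation, updated through gene identifiers, named 1 gene for 34945 probe sets, several for 932 and none for 9160.

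Ductus was compared with aorta by limma 3.58.1 (lmFit and eBayes, R 4.3.3) with tissue as the only term, over 18193 genes (the probe set with the highest mean for each) and over all probe sets, with Benjamini-Hochberg adjustment and a call at 0.05. Differences and their 95% intervals are on the log2 scale of the deposited values, and fold changes are the linear ratios that correspond to these differences. The test was tried on simulated data. All 9 members are described. Of each pathway list, up to 4 called genes with the smallest adjusted p were named, or the gene with the largest difference where none was called. Agtr1a, Gnaq and Gna11 were added after their values were seen. Members and lists were chosen with earlier results of these data known. The first quartile of an array (2.74 to 2.86) served as a mark of dim signal. Promoters and gene order came from RefSeq (GRCm38.p6).

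Arrays of the 2 tissues share replicate numbers. Residual correlations between arrays of the same number were -0.0676, -0.148, -0.191 and -0.227, so the numbers were not taken to pair them. Whether equal numbers mark 1 litter is not given in the labels used here. The alternatives were other normalizations, filters, probe set rules, priors, array weights, thresholds, a replicate block, leaving out each array, and marker means as covariates.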

Additional observations from a re-analysis of the deposited data

Results flagged for a closer look

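In 7 of 100 groups of 4 arrays examined, 1 array stood apart from the other 3 by Dixon's criterion, which chance alone meets in about 1 in 20 groups. Ductus replicate 4 read 6.90 on the Rgs2 probe set 1419248_at, below 7.31 to 7.35 on the other ductus arrays. Aorta replicate 4 read 3.64 on the Rgs16 probe set 1455265_a_at, above 2.81 to 2.94. For Grk4, aorta replicate 1 read 2.97, below 3.78 to 3.89. The endothelial marker mean was 7.76 in aorta replicate 3, below 8.09 to 8.15. The skeletal muscle marker mean was 6.59 in ductus replicate 3, above 4.11 to 4.48, and 4.35 in aorta replicate 4, above 3.78 to 3.86. The fibroblast marker mean was 9.84 in ductus replicate 2, above 9.73 to 9.75.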

How the results depend on the processing

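Rgs5 and Rgs3 kept their direction under every alternative run and lost their calls only with the smooth muscle, endothelial or mesothelial marker mean as a covariate (added after seeing the data; means that separate the tissues). With these 3, in that order, 55, 44 and 48 genes were called in all against 702 (31, 39 and 39 against 328 higher in the ductus; 24, 5 and 9 against 374 higher in the aorta), 0, 0 and 0 of the 9 RGS genes and of their probe sets, 1, 1 and 1 pathway genes against 8, and 2, 1 and 1 markers against 20. The skeletal muscle mean gave 464 genes, 212 of them higher in the ductus. A threshold of 0.01 gave 304 genes (170 and 134), 5 pathway genes and 10 markers. A replicate block, tried although the residual correlations showed no pairing (whether equal numbers mark 1 litter is not known), gave 403 genes (208 and 195) and 11 markers. It ended the calls of Rgs4 (adjusted p = 0.0795), Gng2 (0.133), Agtr1a (0.119) and Npy1r (0.0548) and brought Grk4 past the threshold (0.0300). Leaving out 1 array gave 443 (without aorta replicate 2) to 705 genes, with 454 without ductus replicate 4, and 201 to 419 genes higher in the aorta, and 2 to 5 RGS genes, with 5 (Rgs2 and Rgs10 added) without aorta replicate 4.

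Of members without a call, these reversed their sign. Rgs1 (1417601_at) came to -0.011, -0.061 and -0.020 with the thymocyte, skeletal muscle and smooth muscle means, and ranged from -0.022 to 0.081 without 1 array. Rgs16 was 0.25 when its most variable probe set (by interquartile range) stood for the gene. The Rgs16 probe set 1426037_a_at reached 0.015 after quantile normalization, 0.11 with the endothelial mean and -0.094 to 0.023 without 1 array, and 1455265_a_at came to -0.047, -0.18 and -0.21 with the thymocyte, skeletal muscle and smooth muscle means. Rgs17 came to 0.045 (1450693_at) and 0.0020 (1439779_at) with the endothelial mean and, on the first, ranged from -0.36 to 0.030 without 1 array. The Rgs2 probe set 1443250_at reached 0.011 after quantile normalization, 0.0019 with the thymocyte mean and -0.050 to 0.0070 without 1 array. The Rgs4 probe set 1448285_at came to -0.024 with the endothelial mean. Beyond the members, Rgs14 came to 0.089, 0.29 and 0.49 with the smooth muscle, endothelial and mesothelial means, Ubr2 to 0.026 and 0.015 with the last 2, and Grk4 to -0.10 with the mesothelial mean. The cause was not tested. Dim members have no value under the filters on low means, and dim signal limits Rgs1, Rgs16 and Rgs17 most.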
